A study of Mus musculus with 10 samples.

Results

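Genes of B cells and of plasma cells, the antibody-secreting cells that B cells give rise to, were examined in the livers of mice that received an adenovirus encoding the histone demethylase Phf2 or GFP. A B cell senses antigen through a membrane immunoglobulin that signals through the paired chains Cd79a and Cd79b, and its identity is held by transcription factors such as Pax5. On the way to a plasma cell the Pax5 program is shut down, the endoplasmic reticulum expands, and genes for antibody assembly such as Mzb1 and Jchain are switched on. IgA made by plasma cells can be carried across liver epithelium into bile. The 9 genes were fixed by name: Cd79a, Cd79b and Ms4a1 of the cell surface, the kinase Blk, the Fc receptor relative Fcrla, the nuclear factors Pax5 and Pou2af1, and the secretory genes Mzb1 and Jchain. All 9 were found among the 19938 genes named by a single symbol on the array, each through 1 feature, so that no choice between features was needed.

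The livers came from 10 male C57BL/6J mice injected by tail vein at 8 weeks of age and studied in the fed state 3 weeks later, with 5 Phf2 mice, 5 GFP mice and 1 Affymetrix Gene ST array per mouse. Every mouse carried an adenovirus, no group without virus was part of the series, and the sources used here do not name the adenoviral promoter. According to the methods, mice without overexpression were removed from the cohort. The Phf2 feature of the array read 6.32 to 6.54 under GFP and 6.27 to 6.58 under Phf2, a difference of -0.05 (limma adjusted p = 0.751), and so does not check the labels. Values are log2 after RMA, on which a difference of 1 is a 2-fold change, and array medians lay between 5.06 and 5.18. Differences are Phf2 minus GFP. They were tested with limma across all genes with Benjamini-Hochberg adjustment (threshold 0.05), and, for single genes, with a two-sided exact permutation test over the 10 arrays, whose smallest possible p is 0.00794. The hepatocyte genes Alb and Ttr read 12.59 to 12.87 on every array. The values are whole-liver RNA, in which more cells of a type and more RNA per cell cannot be told apart.

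None of the 9 B cell and plasma cell genes passed the adjusted threshold in limma, against 9.67% of all genes tested. At an unadjusted p under 0.05 there was 1, Mzb1 (22.2% of all genes), and at 1.5-fold with an unadjusted p under 0.05 there was 0 (3.54% of all genes). In no member did the 5 Phf2 arrays lie wholly above or below the 5 GFP arrays (9.08% of all genes). The count was also 0 by the methods' t-test, here given the same Benjamini-Hochberg adjustment, which the paper does not describe. The fitted difference was positive for 7 of the 9 and their median was 0.08, beside 45.3% positive and a median of -0.01 over all genes. The count of positive members was 6 after a further quantile normalization and 5 under median centring (medians over all genes -0.02 and -0.03). Without Phf2 replicate 4 the median of the members was -0.0007 and 4 of the 9 were positive. The differences that these arrays could still hold were unequal between the members, from narrow intervals around 0 for Fcrla and Pax5 to a wide one for Jchain. Fcrla and Pax5 had mean signals at percentiles 31.5 and 45.4 of the genes tested. At such low signal a narrow interval describes the feature and does not bound a change in transcript amount.

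**Figure D1:**
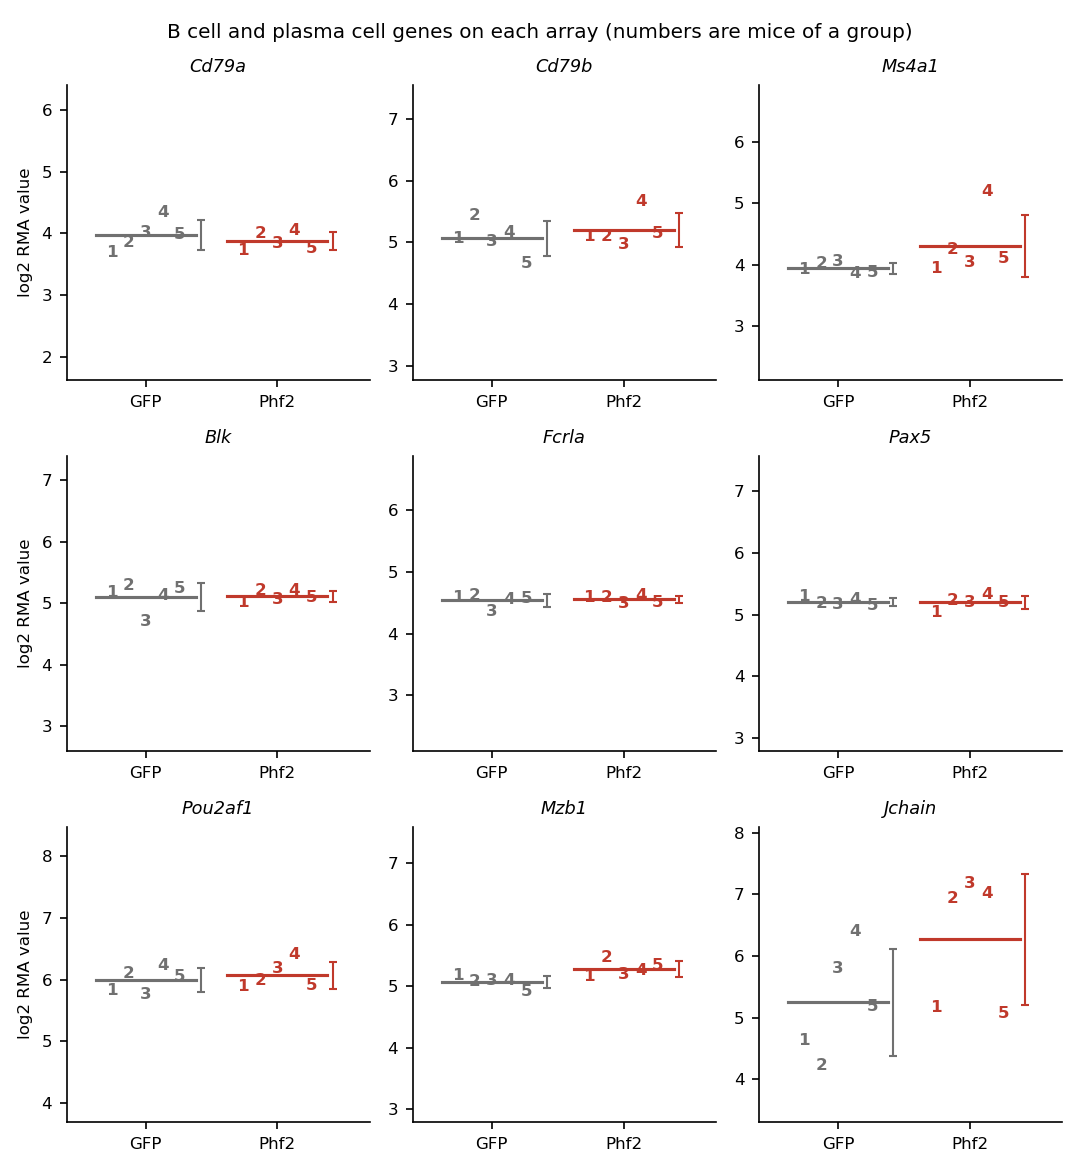
Log2 RMA value (vertical axis, each panel spanning the same number of log2 units) of the 9 genes on each array. Grey digits are the 5 GFP mice and red digits the 5 Phf2 mice, lines are group means and bars the SD; Jchain spreads most in both groups, and mouse 4 of the Phf2 group stands above the others for Ms4a1 (5.19) and Cd79b (5.67).

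Cd79a and Cd79b, the signalling chains of the B cell receptor, did not differ between groups by more than their spread. Cd79a read 3.69, 3.85, 4.02, 4.34 and 3.98 under GFP and 3.73, 4.00, 3.84, 4.05 and 3.76 under Phf2. The 2 groups overlapped almost fully, with the highest value in a GFP mouse. The fitted log2 difference was -0.10 (SE, the standard error, 0.11, 95% interval -0.34 to 0.14, limma adjusted p = 0.681, exact permutation p = 0.508). Cd79b read 5.06, 5.43, 5.02, 5.16 and 4.65 under GFP and 5.10, 5.09, 4.97, 5.67 and 5.14 under Phf2. Phf2 replicate 4 was above all other arrays and GFP replicate 5 below them. The groups differed by a log2 value of 0.13 (SE 0.15, 95% interval -0.20 to 0.45, limma adjusted p = 0.694, exact permutation p = 0.484), and by 0.01 without Phf2 replicate 4. The feature of Cd79a had a mean signal at percentile 18.6 of the genes tested and that of Cd79b at percentile 44, a description of brightness on the array and not of transcript amount.

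Ms4a1 encodes CD20, a membrane protein of mature B cells that plasma cells lose. It read 3.93, 4.02, 4.06, 3.86 and 3.87 under GFP and 3.94, 4.25, 4.04, 5.19 and 4.11 under Phf2. Phf2 replicate 4 lay far above the other 9 arrays, while 3 of the 5 Phf2 arrays were above the highest GFP array. Phf2 minus GFP came to 0.36 (SE 0.19, 95% interval -0.05 to 0.78, limma adjusted p = 0.299, exact permutation p = 0.0476), and 0.14 without Phf2 replicate 4. The same array had the highest value of all 10 for Fcer2a, the low-affinity IgE receptor of follicular B cells (4.45 against 3.28 to 3.78 elsewhere), for the inhibitory coreceptor Cd22 (5.70 against 4.57 to 5.13) and for the B lineage factor Ebf1 (4.69 against 3.76 to 4.19), all 3 named after their values were seen. In limma the adjusted p was 0.0626 for Cd22 (0.45 higher), 0.464 for Ebf1 (0.20) and 0.760 for Fcer2a (0.12). Not all B lineage genes peaked on that array. Cd180 was highest in Phf2 replicate 3 (7.24) and Tnfrsf17 in Phf2 replicate 5 (4.42), both also named after their values were seen. Of the members, Cd79a was highest in GFP replicate 4 (4.34), Mzb1 in Phf2 replicate 2 (5.46) and Jchain in Phf2 replicate 3 (7.17).

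Blk, a Src family kinase of B cells, and Fcrla, a relative of Fc receptors that stays inside the B cell, were the members with the closest array patterns. Blk read 5.17, 5.28, 4.71, 5.12 and 5.23 under GFP and 5.01, 5.20, 5.06, 5.20 and 5.09 under Phf2. Fcrla read 4.59, 4.62, 4.36, 4.55 and 4.57 under GFP and 4.58, 4.58, 4.49, 4.62 and 4.51 under Phf2. GFP replicate 3 was the lowest array for both, and the groups overlapped. Blk had a log2 difference of 0.01 (SE 0.10, 95% interval -0.21 to 0.23, limma adjusted p = 0.971, exact permutation p = 0.976). Fcrla had one of 0.02 (SE 0.06, 95% interval -0.12 to 0.15, limma adjusted p = 0.924, exact permutation p = 0.810). Without GFP replicate 3 these became -0.09 and -0.03.

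Pax5, the factor that keeps a B cell a B cell, and Pou2af1, a coactivator that Oct factors recruit to B cell promoters, showed no difference past the test. Pax5 read 5.30, 5.18, 5.16, 5.24 and 5.14 under GFP and 5.04, 5.23, 5.20, 5.32 and 5.19 under Phf2. All 10 arrays lay within 0.28 of each other. On the log2 scale the groups differed by -0.01 (SE 0.06, 95% interval -0.15 to 0.13, limma adjusted p = 0.949, exact permutation p = 0.873). Pou2af1 read 5.83, 6.10, 5.76, 6.23 and 6.05 under GFP and 5.89, 5.99, 6.18, 6.41 and 5.90 under Phf2. Replicate 4 was the highest array of each group and the groups overlapped. The fitted log2 difference was 0.08 (SE 0.12, 95% interval -0.17 to 0.34, limma adjusted p = 0.759, exact permutation p = 0.563), and -0.0046 without Phf2 replicate 4.

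Mzb1 encodes a chaperone partner of the endoplasmic reticulum that serves immunoglobulin assembly and secretion. It read 5.17, 5.07, 5.09, 5.09 and 4.92 under GFP and 5.15, 5.46, 5.19, 5.26 and 5.34 under Phf2. In 4 of the 5 Phf2 mice it was above every GFP mouse, and Phf2 replicate 1 was just below the highest of them. The groups differed by a log2 value of 0.21 (SE 0.07, 95% interval 0.05 to 0.37), with an unadjusted p of 0.0131 and an adjusted p of 0.0973 from limma (exact permutation p = 0.0159). In fold terms this was 1.16 with an interval of 1.04 to 1.30. Over the 19 alternatives that kept this gene, its difference stayed between 0.17 and 0.25 and its adjusted p between 0.0718 and 0.221.

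Jchain, the joining chain that links IgA and IgM into polymers, was the member with the largest spread. It read 4.63, 4.23, 5.80, 6.39 and 5.18 under GFP and 5.16, 6.94, 7.17, 7.02 and 5.07 under Phf2. Phf2 replicates 2, 3 and 4 were above every GFP mouse, whereas Phf2 replicates 1 and 5 were below GFP replicates 3, 4 and 5. Phf2 minus GFP came to 1.03 (SE 0.50, 95% interval -0.05 to 2.11, limma adjusted p = 0.252, exact permutation p = 0.151). The fold was 2.04 with an interval of 0.963 to 4.31, so that these arrays allow no change as well as a large rise. The difference ran from 0.77 to 1.33 over the 20 alternatives, with an adjusted p between 0.114 and 0.458.

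**Figure D2:**
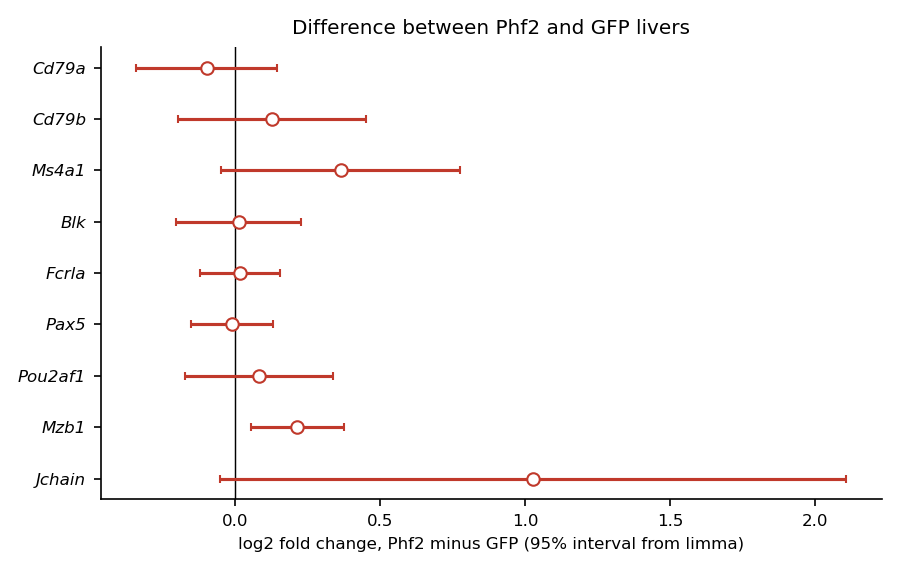
Log2 fold change of each gene (horizontal axis, Phf2 minus GFP; open circles) with its 95% interval from limma (bars, 5 mice per group). Mzb1 alone has an interval that leaves out 0 (0.05 to 0.37, before adjustment), and that of Jchain runs from -0.05 to 2.11.

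After the group means were subtracted, the 36 pairs of members correlated over the 10 arrays at a median r of 0.30, and 31 pairs were above 0. The highest was Blk with Fcrla (r = 0.90, and 0.89 without the 2 arrays farthest from the median of Blk), followed by Cd79a with Jchain (r = 0.80 and 0.83). Cd79b with Ms4a1 had r = 0.72, which was 0.19 without the 2 arrays farthest from the median of Cd79b. The lowest was Fcrla with Jchain (r = -0.26). All 10 arrays of a pair share their normalization, and these values are descriptions. The mean of the 9 genes was 4.82, 4.86, 4.88, 5.11 and 4.84 under GFP and 4.84, 5.19, 5.13, 5.41 and 4.90 under Phf2. Replicate 4 was again the highest of each group. Among the other 19929 genes the closest to this mean, on group-centred values over the 10 arrays, were Rab39 (r = 0.94), Kif14 (0.94), Dtl (0.93), Sart1 (0.93) and Zfp668 (0.93). Without replicate 4 of both groups these lay between 0.79 and 0.91. Since the genes were picked as the closest on the same arrays, these values are descriptions and no independent check.

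The antibody genes themselves were read by 31 features with an immunoglobulin heavy, kappa or lambda symbol, of which 16 carry several symbols. Their variable segments are near-identical in places, so reads by one feature can come from several genes and the features are not independent. They were gathered after values of these data were known. In a fit over all 35556 features, the difference was positive in 24 of the 31 (77.4%, against 44.2% of all features), with a median of 0.34. At an adjusted p of 0.05 in limma 1 was higher (2.74% of all features were), and at an unadjusted p under 0.05 there were 10 (17.3% of all features). The median was 0.19 over 10 heavy chain features and 0.44 over 19 kappa features.

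The feature that passed was that of Igha, the heavy chain constant gene of IgA (feature 10403034). It read 4.89, 5.21, 4.93, 4.63 and 5.16 under GFP and 5.14, 5.57, 6.15, 5.72 and 5.88 under Phf2. In 4 of the 5 Phf2 mice it was above every GFP mouse. On the log2 scale the groups differed by 0.73 (SE 0.17, adjusted p = 0.0157 in the fit over genes and 0.0415 in the fit over all features, both from limma; exact permutation p = 0.0238). The call was lost by the methods' t-test (adjusted p = 0.0726). The other feature with Igha as its only symbol (10403063) had a log2 difference of 0.54 (adjusted p = 0.121 over all features). Features that share Igha with other heavy chain symbols ran from -0.03 (10403021) to 0.41 (10403015), and none of them was called. The features of Ighm, the heavy chain of IgM, disagreed. Feature 10402864 read 4.81 to 4.97 in the GFP mice and 5.02 to 5.70 in the Phf2 mice, without overlap, with a log2 difference of 0.42 (adjusted p = 0.0917 over all features, exact permutation p = 0.00794). Feature 10402991, brighter and therefore the one that stood for Ighm in the fit over genes, had -0.04 (adjusted p = 0.844 over all features). A further Ighm feature, 10403069, had -0.01 (adjusted p = 0.985 over all features). Its mean signal was low, at percentile 3.8 of all features.

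The light chain features held the largest differences of the 31 and the largest spread. A feature shared by several kappa variable genes and Map3k20 (10538880) read 3.12, 3.15, 3.97, 4.59 and 3.95 under GFP and 3.92, 5.82, 7.67, 7.10 and 3.72 under Phf2. Phf2 replicates 2, 3 and 4 were above every GFP mouse, and Phf2 replicates 1 and 5 were inside the GFP range. The fitted log2 difference was 1.89 (SE 0.74, limma adjusted p = 0.208, exact permutation p = 0.0952). The feature shared by Iglv1, Iglc1 and Iglv2 (10438405) read 5.35, 4.99, 5.55, 5.36 and 5.86 under GFP and 6.14, 6.48, 6.91, 7.45 and 5.58 under Phf2, with a log2 difference of 1.09 (SE 0.30, limma adjusted p = 0.0723, exact permutation p = 0.0159). Phf2 replicates 2, 3 and 4, the mice high for Jchain, were among the 3 highest arrays for 22, 21 and 23 of the 31 features. Phf2 replicates 1 and 5 were so for 3 each. The pattern did not hold for every feature. For 10438405 replicate 1 (6.14) was also above every GFP mouse, and for Igha feature 10403034 replicate 5 (5.88) was second only to replicate 3 (6.15).

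**Figure D3:**
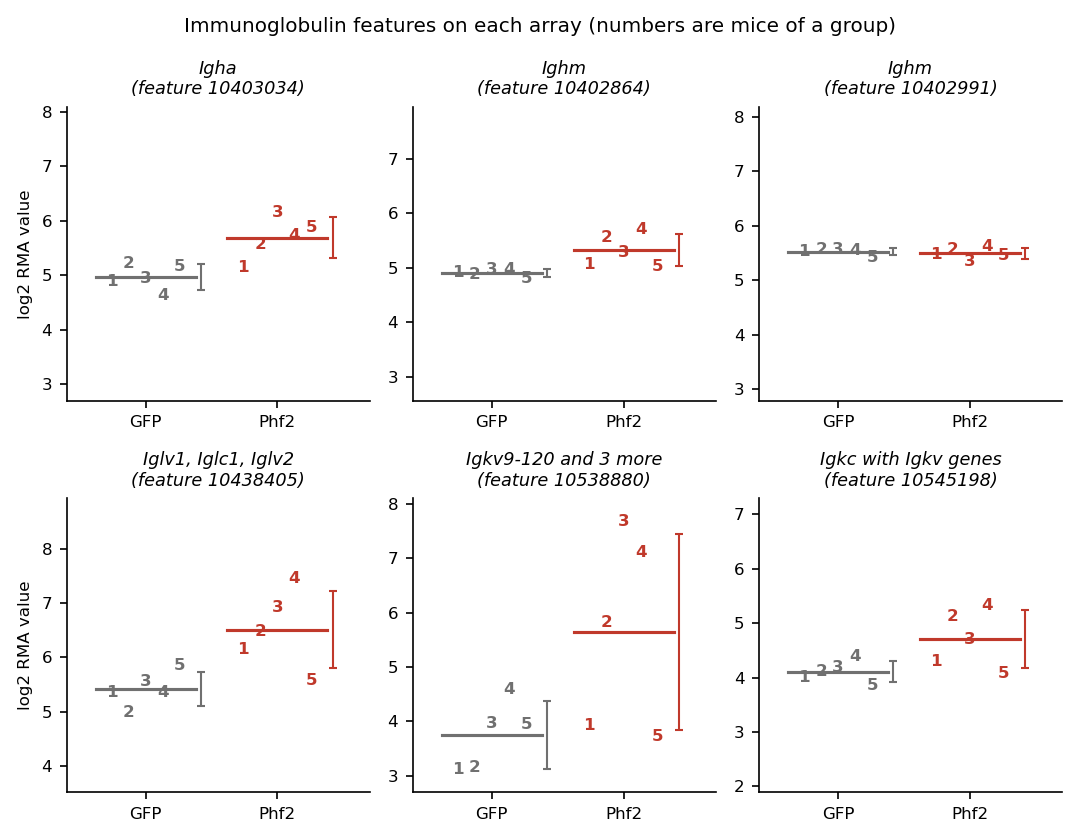
Log2 RMA value (vertical axis) of 6 immunoglobulin features on each array, with grey digits for the 5 GFP mice, red digits for the 5 Phf2 mice, lines for means and bars for the SD. Apart from the brightest Ighm feature, each had the largest difference among features of its kind (Igha, Ighm, lambda, kappa or with Igkc). They are thus not typical of all 31 features, whose median difference was 0.34. Phf2 mice 2, 3 and 4 are the high ones for the shared kappa feature 10538880 (5.82 to 7.67), while mice 1 and 5 stay at 3.92 and 3.72.

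Other genes of the B lineage were taken from 4 lists of surface receptors, receptor signalling, transcription factors and precursors. Of the 51 genes measured, 3 passed the test and all 3 were higher (5.43% of all genes were), with 41 of 51 positive and a median log2 fold change of 0.13. Of 17 surface receptors 1 was higher, Cd72, a coreceptor of B cells that macrophages also carry. Its mean was 5.90 ± 0.21 under GFP and 6.70 ± 0.22 under Phf2 (SD, n = 5 each), higher by 0.81 (SE 0.12, limma adjusted p = 0.00128), and the groups did not overlap. Of 14 signalling genes 1 was higher, the kinase gene Prkcb, with 0.41 (adjusted p = 0.0284), a call lost in 10 of 20 alternatives. Of 12 transcription factors 1 was higher, Spi1, which encodes PU.1 of B cells and myeloid cells, with 0.40 (adjusted p = 0.0276), a call lost in 7 of 19 alternatives. All 14 signalling genes and all 12 transcription factors had positive differences, with medians of 0.24 and 0.18. This was not particular to B lineage lists. All 7 monocyte and macrophage markers and all 8 general leukocyte genes were positive too, with medians of 0.62 and 0.71. Of 6 Kupffer cell markers only 1 was positive. Of 8 precursor genes, which mark B cell formation in marrow, 0 passed (0 also at an unadjusted p under 0.05). The median was -0.03, and those with the smallest p were Rag1, with a log2 difference of -0.16, and Dntt, with 0.12.

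Among 14 further plasma cell genes 2 rose and 2 fell (28.6% called, against 9.67% of all genes), the other 10 were not called, and the median was -0.06. The higher genes were Slamf7, a surface receptor of plasma cells that NK cells, T cells and macrophages share, with a log2 difference of 1.05 (SE 0.21, limma adjusted p = 0.00659), and Prdm1, the factor Blimp-1 that also acts in T cells and macrophages, with 0.43 (SE 0.07, adjusted p = 0.00189). The lower genes were Sdc1, the syndecan CD138, and Txndc5, a disulfide isomerase of the endoplasmic reticulum, both also expressed outside the B lineage. Sdc1 fell by 0.45 (SE 0.08, adjusted p = 0.00508) and Txndc5 by 0.42 (SE 0.10, adjusted p = 0.0164, and 0.0547 by the methods' t-test). Irf4, a factor of plasma cells that activated T cells and myeloid cells also use, and Tnfrsf17, the receptor BCMA of plasma cells, had log2 differences of -0.01 (adjusted p = 0.977) and 0.10 (adjusted p = 0.451) and were named after these were seen. Pancreatic acinar cells express several genes of antibody secretion too, and the mean of 10 acinar genes was 12.11, 8.21, 6.90, 6.09 and 7.63 under GFP and 5.85, 10.52, 9.83, 8.56 and 6.05 under Phf2. Phf2 replicates 2, 3 and 4, the high ones for Jchain and most immunoglobulin features, were also higher for acinar genes than Phf2 replicates 1 and 5. GFP replicate 1 was the highest of all for acinar genes and read 4.63 for Jchain. With this mean as a covariate in limma the Jchain log2 fold change was 1.03 (adjusted p = 0.262) and the Mzb1 log2 fold change was 0.21 (adjusted p = 0.0987). The 10 acinar genes had a median log2 fold change of -0.06, and a covariate so even between groups could hardly move these differences. Whether acinar tissue contributed to the Jchain values was not tested.

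Among 6 genes for B cell survival and attraction 2 fell and 4 were not called (33.3% called, against 9.67% of all genes). Cxcl13, the chemokine that draws B cells into follicles, read 6.11, 6.33, 7.14, 6.39 and 7.13 under GFP and 4.04, 5.48, 5.11, 6.29 and 5.04 under Phf2. Only Phf2 replicate 4 reached the GFP range. The groups differed by a log2 value of -1.43 (SE 0.34, limma adjusted p = 0.0202), a call lost in 4 of 20 alternatives. Cxcl12, which holds B cells and plasma cells in marrow niches, fell by 0.57 (SE 0.11, adjusted p = 0.00757). Tnfsf13b, the survival factor BAFF, had -0.01 (adjusted p = 0.965) and was named after its value was seen. Pigr, the receptor that carries polymeric IgA with its J chain across epithelium, read 10.84, 11.07, 11.21, 11.11 and 10.89 under GFP and 10.51, 10.06, 10.02, 10.21 and 10.48 under Phf2. All 5 Phf2 mice were below all 5 GFP mice, and the log2 fold change was -0.77 (SE 0.11, limma adjusted p = 0.000945). It was the 1 called gene of 2 immunoglobulin transport receptors.

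Genes of other leukocytes stood beside these values as follows, where 9.67% of all genes were called and 5.43% were called higher. Of 8 genes that most leukocytes share, 6 were higher, with a median of 0.71, but 0 by the methods' t-test, 2 in the fit over all features and 2 to 7 with an array left out. The per-array mean of the 8 ran from 6.77 to 7.43 in GFP mice and from 7.31 to 8.28 in Phf2 mice, highest in Phf2 replicate 4. Among them Ptprc, the common leukocyte antigen CD45, had a log2 difference of 0.85 (adjusted p = 0.0270, a call lost in 9 of 20 alternatives) and Cd52 one of 1.01 (adjusted p = 0.0362, lost in 11 of 20). Of 10 T cell markers 5 were higher (3 to 7 with an array left out), with a median of 0.64. The mean of the 10 ran from 4.81 to 5.06 in GFP mice and from 5.19 to 6.01 in Phf2 mice, again highest in Phf2 replicate 4. Cd3g, a chain of the T cell receptor complex, rose 2.83-fold (limma adjusted p = 0.00393). Of 8 NK cell markers 2 were higher (Gzma and Nkg7, which T cells share), of 7 monocyte and macrophage markers 4 were higher (0 by the methods' t-test and 2 to 4 with an array left out), of 6 Kupffer cell markers 4 were lower, and of 6 neutrophil markers 0 passed (2 at an unadjusted p under 0.05). Of 6 markers of plasmacytoid dendritic cells, which also express Blk, 2 were higher, Bst2 and Ly6d, both of which other cells express, and the call of Bst2 was lost in 10 of 20 alternatives. Of 6 hepatocyte markers 2 were lower, Cps1 (a call lost in 12 of 20 alternatives) and Apoa1 (lost in 7 of 20), and the count ran from 0 to 3 with an array left out. Of 2 erythroid markers 1 was lower, and of 10 acinar markers 0 passed (0 at an unadjusted p under 0.05). How far these markers bear on the values of the 9 genes, and whether the B cell genes differ from the T cell genes in their response, was not tested.

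**Figure D4:**
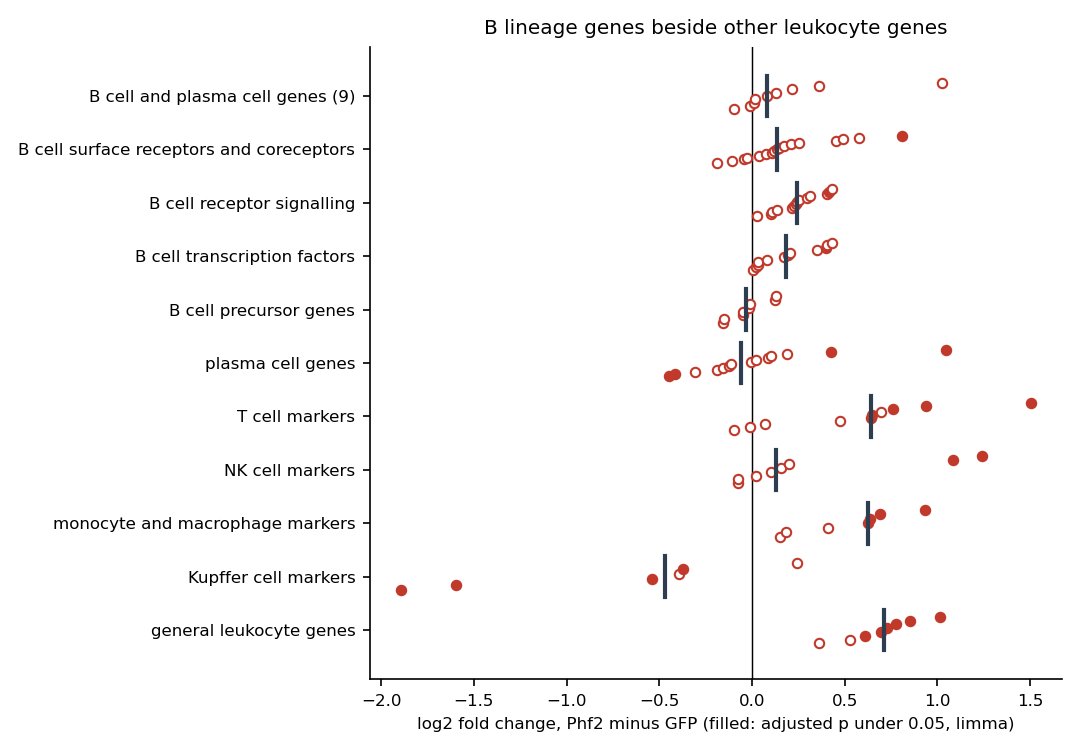
Log2 fold change (horizontal axis, Phf2 minus GFP) of each gene of the lists, with the 9 B cell and plasma cell genes in the top row. Filled points passed an adjusted p of 0.05 in limma, open points did not, and vertical bars are medians (0.08 for the 9 genes, 0.64 for T cell markers, 0.71 for genes that leukocytes share).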

How the data were processed

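Liver RNA of 10 mice was measured, 1 array per mouse, and group and replicate number were taken from the titles. The authors normalized the raw arrays with RMA in Bioconductor and deposited log2 values of 35556 features, and they ran statistics in Partek GS (per gene analysis of variance). The submitters' notes name both tools, but neither versions nor a genome build, so no coordinates are printed. The methods name a human array, whereas the features belong to a mouse array, and the extraction kit differs between methods and labels.

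Features were named through the platform annotation (21789 with 1 symbol, 1621 with several, 12146 with none), and 21698 of the first were updated to GRCm38.p6 gene names. A gene with several features was represented by the brightest, which left 19938 genes. The comparison used limma 3.58.1 (R 4.3.3) without covariates, with Benjamini-Hochberg adjustment. Intervals are 95%. The exact permutation test enumerated 252 splits. The fit was tested on simulated data.

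The 9 genes and the 18 lists were chosen with earlier results of these data known, so that no p is given for a list. Besides the 9, genes are named by a rule: per list, at most 2 called genes that rose most and 2 that fell most, or the 2 lowest p where nothing was called, and the 5 genes most correlated with the mean of the 9. Genes outside it are said to be named after their values were seen. Some list genes are not analysed here.

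Alternative settings comprised array weights, the methods' t-test, a prior that is robust and follows intensity, leaving out dim features (mean under 5.43 in both groups), a further quantile normalization, median centring, all features, averaging the features of each gene, a replicate block, the acinar mean as a covariate, other thresholds and leaving out each array. No depth applies to arrays: the number of mice limits the precision. Arrays of a group are biological replicates per the labels.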

Additional observations from a re-analysis of the deposited data

Results flagged for a closer look

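Among the 18 sets of 5 values (9 genes in 2 groups), 4 held an array whose distance to its nearest neighbour was over 0.71 of the whole range of its group, where chance gives about 1 in 20. Phf2 replicate 4 stood above the other Phf2 arrays for Ms4a1 at 5.19 (the next was 4.25) and for Cd79b at 5.67 (the next was 5.14). GFP replicate 3 stood below the other GFP arrays for Blk at 4.71 (the next was 5.12) and for Fcrla at 4.36 (the next was 4.55). Each of these arrays was flagged in a pair of genes. The cause was not tested.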

How the results depend on the processing

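The count of the 9 genes past the threshold was 0 under every alternative run, including the replicate block (0) and each array left out (0 to 0). The numbers do not pair the mice: deviations of same-numbered arrays correlated at -0.29 to -0.04, and 0 of 5 numbers matched best with themselves. With the replicate block 1514 genes were called, against 1929 without it. The count of all genes called was 922 at an adjusted p of 0.01 and 706 at the study's thresholds, and ran from 1309 to 2132 with an array left out. Without dim features only Jchain and Pou2af1 of the 9 genes remained, with a median of 0.55. Jchain passed this filter only through the Phf2 group, where it is higher (5.25 under GFP and 6.27 under Phf2), so that median rests on its own difference and bears on nothing else. With an array left out the median ran from -0.0007 (Phf2 replicate 4) to 0.14 (GFP replicate 4). The Blk log2 fold change turned to -0.0080 after a further quantile normalization and to -0.0090 under median centring, and ran from -0.0878 to 0.0548 with an array left out. The Fcrla log2 fold change turned to -0.0035 under median centring and ran from -0.0286 to 0.0359 with an array left out, Pax5 ran from -0.0429 to 0.0279 and Pou2af1 from -0.0046 to 0.14. Of the acinar markers, the Prss2 log2 fold change was -0.0222 with array weights and ran from -0.4101 to 1.1004 with an array left out, and Cela1 from -0.64 to 0.81. Counts of general leukocyte genes called were 6 and, by the methods' t-test, 0, over all features 2, and 2 to 7 with an array left out. Those of T cell markers were 5 and, by the methods' t-test, 3, and 3 to 7 with an array left out. Those of the surface receptor list ran from 1 to 3, and those of the signalling list from 0 to 2. Low signal limits the members: 7 of 9 had a mean signal under the median of all genes.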
